A study of Mus musculus with 15 samples.

Results

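The piRNA cluster chr9_67687024_67773986 lies on mouse chromosome 9 between 67687024 and 67773986 (build mm10, the same assembly as GRCm38) and spans 86963 bp. Its members were all rows of the 15 count tables that overlapped this interval, on both strands and at every length. They were 328607 of the 8128951 small-RNA loci of the whole series, where a locus is 1 genomic interval on 1 strand with its read count. Membership was fixed by coordinates alone and used no measured value, although the cluster itself was picked with earlier results of these data known.

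Small RNA from testes of C57Bl/6 male mice aged 8 weeks was sequenced to find piRNAs that carry pseudouridine (Ψ), an isomer of uridine. There were 3 libraries in each of 5 groups, all from gel-sized total testis RNA of this strain with no allele or drug that separates the groups. In the first set, RNA was treated with CMC, a carbodiimide that binds Ψ and stops reverse transcription, or mock-treated. In the second set, Ψ-IP libraries held the RNA recovered with an antibody against Ψ, input libraries the RNA before the pull-down and flow-through libraries the unbound RNA. The sets were made with library kits of different makers (NEBNext for mock and CMC, Nextflex for the others), so a difference between the sets cannot be told apart from a difference between kits. The labels give 1 gel cut for all libraries and the study's methods a narrower one for the pull-down, so shares of short RNA may also differ between the sets by the cut and were tested only within a set. The labels do not say that the libraries of a group came from separate animals, so the tests measure the spread between libraries, which may be technical. Whole testis was used, and fewer germ cells of a stage and less piRNA per cell cannot be told apart. Counts of small RNA hold no marker mRNAs, so the tissue label was not checked against them.

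Pachytene piRNA clusters are transcribed in spermatocytes into long noncoding precursors that are cut into consecutive piRNAs, which PIWI proteins carry. In mouse testis MILI carries the shorter and MIWI the longer piRNAs, and both classes mostly begin with uridine. Many pachytene clusters are bidirectional, with precursors that run in opposite directions from a shared central promoter. A PIWI protein cuts RNA that pairs with its piRNA between the bases that face piRNA positions 10 and 11, so that an overlap of 10 nt between 5′ ends on opposite strands is the usual sign of a cut.

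Few piRNAs of the cluster could be shown as sequence, because sequence was read from GENCODE M21 transcripts of GRCm38 and these covered 3455 bases and 8969 loci, which held 1.43% of the mean CPM (each count scaled by its library's total deposited count to the usual per-library base, then averaged over the 5 group means). Among these loci, main-strand piRNAs of 24 to 33 nt had T (U in the RNA) at position 1 in 93.6% of their CPM and at 56.9% of the loci. The first 4 sequences are abundant piRNAs that differed between Ψ-IP and input in either direction, with each T, the base that can be Ψ, in capitals. They were antisense to Gm7787 (minus strand, 67748077 to 67748764) or sense to the hairpin of Mir7241 (minus strand, 67727717 to 67727780).
Gm7787, plus strand, 67748455 to 67748484: TTccacTgcTTTgccaaTTaTcgTgTccgc
Gm7787, plus strand, 67748598 to 67748625: TaTaagaTacagggaaggaTTcacaggc
Gm7787, plus strand, 67748495 to 67748523: TagcTgaTccgagaTgTTgcaacTcTaTc
Mir7241, minus strand, 67727722 to 67727751: TcTccagccTgcgTagTagaTacTcaTggg

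The next 4 sequences show how short RNAs of 19 nt from the other strand face the piRNAs of Gm7787. Capitals mark the 19-nt RNA and the bases of the piRNA that face it. These 19-nt RNAs were rare, at 0.331 and 0.106 CPM. In both pairs, the 3′ end of the 19-nt RNA pairs with position 11 of the facing piRNA, and in the second pair the first base of the 19-nt RNA lies beyond that piRNA.
Pair 1, minus strand, 67748465 to 67748483: CGGACACGATAATTGGCAA
Pair 1, plus strand, 67748455 to 67748484: ttccactgctTTGCCAATTATCGTGTCCGc
Pair 2, minus strand, 67748608 to 67748626: TGCCTGTGAATCCTTCCCT
Pair 2, plus strand, 67748598 to 67748625: tataagatacAGGGAAGGATTCACAGGC

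The cluster took a similar share of every library, from 5.65 to 6.37% of all deposited counts. Total counts ran from 11575705 in Ψ-IP replicate 2 to 58399368 in mock replicate 2, and the cluster held 708669 to 3405920 of them per library. The number of its loci with at least 1 count was lower in Ψ-IP (58614 to 77879) than in input libraries (95595 to 119296). Libraries of the same group were distinct beyond counting noise, and each was counted once. The share was 6.37, 6.27 and 6.32% in the input libraries and 6.15, 6.12 and 6.11% in the Ψ-IP libraries. It was 5.85, 5.83 and 5.83% in the mock and 5.82, 5.82 and 5.82% in the CMC libraries.

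The 5′ ends of the cluster fell into 2 sides that meet at a strand switch at 67733899. To its left, over 46876 bp, nearly all counts were on the minus strand, and to its right, over 40087 bp, nearly all were on the plus strand. This main strand of each side held 99.3% of the mean CPM. The left side was the stronger, with 43372.5 CPM against 15982 CPM, or 925 CPM per kb against 399. It had 200792 main-strand loci at 31615 different 5′ ends, and the right side had 99766 loci at 19796 5′ ends.

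Along the precursor strands the sides were not mirror images. On the right, 12.1% of the CPM began within 1 kb of the switch, 48.1% within 5 kb and 91.0% within 20 kb. On the left these shares were 0.382%, 7.12% and 58.8%. The distance that divided the CPM of a side equally was 5138 bp on the right and 13920 bp on the left, and 90% of it lay within 18067 and 37357 bp. The right side was also the more concentrated in the mean over groups. Its most abundant 5′ end held 8.33% of its CPM and its top 100 ends 51.7%, against 1.53% and 34.1% on the left. Groups differed widely at these top ends. The right one, at 67735961, had 2443 CPM in mock and 342 in input, where the end at 67734461 had 552. The left one, at 67709029, had 27.7 CPM in mock and 1024 in input. Over the whole cluster, 10 of the 63773 5′ ends held 10.3% of the CPM and 1000 held 69.0%.

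**Figure D1:**
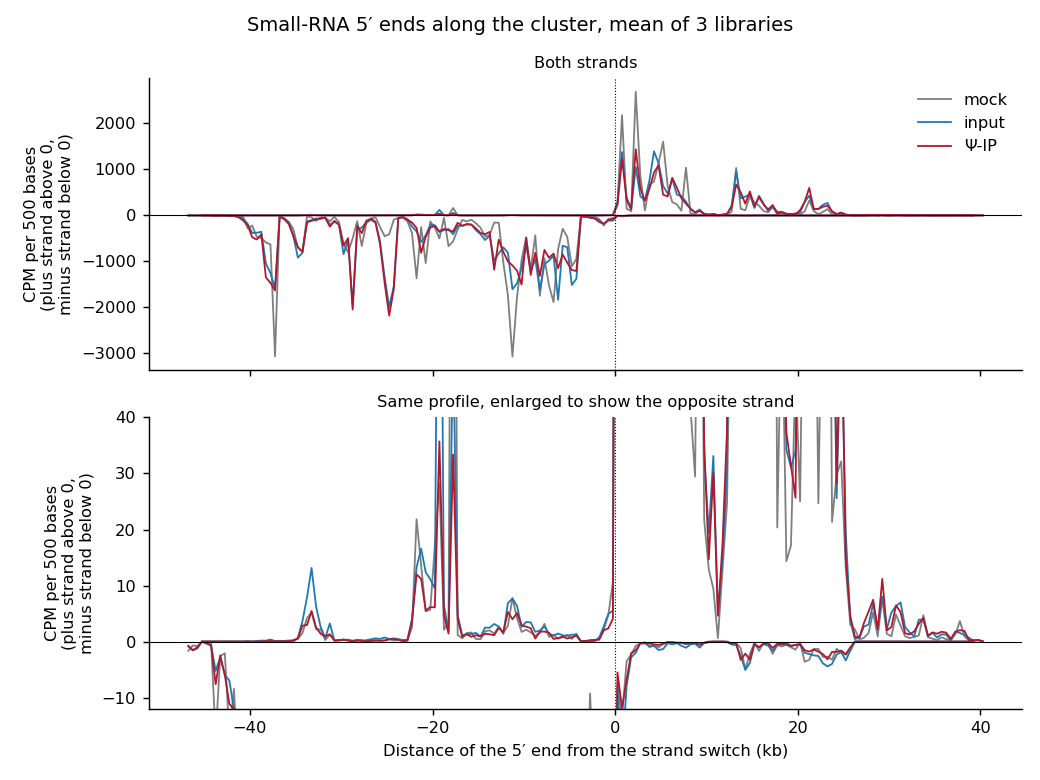
CPM of small-RNA 5′ ends per 500 bases against distance from the strand switch (kb), plus strand above 0 and minus strand below 0, as means of 3 libraries for mock, input and Ψ-IP; the lower panel enlarges the scale. Counts on the minus strand end at the switch and plus-strand counts begin there, the right side is highest within 5 kb, the left side has separate peaks over 40 kb, and the weak opposite-strand signal is largest about 20 kb to the left.

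Annotated repeats held 18.02% of the CPM and 61937 of the loci. Their share was alike on the sides, at 17.97% on the left and 18.5% on the right, but the families differed. On the left most came from old LINE-1 elements, with L1M2 at 6.99% and L1MB5 at 3.07% of that side's CPM. On the right the leading family was the ERVK long terminal repeat RMER19B2 at 4.98%, followed by MERV1 at 2.90%. In repeats, and for reads with several matches in general, the sources used here do not say how multimapped reads were counted.

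Few genes are annotated in the interval, and its piRNAs ran antisense to 3 of the 6 and sense to the other 3. Gm7787 had 651 CPM antisense and 6.29 CPM sense, Gm47110 (plus strand, 67700181 to 67700585) had 76.5 and 12.3, and M5C1000I18Rik (minus strand, 67758712 to 67760230) had 43.7 and 6.11. The coding gene C2cd4b (GENCODE, plus strand, 67759437 to 67760930) was on the sense side, with 6.72 CPM sense and 1.37 antisense. Its RefSeq model starts much farther left, at 67716224, and thus spans the switch. The hairpins Mir7241 and Mir7242 (minus strand, 67729499 to 67729577) lie on the main strand of the left side. They gave 106 and 75.3 CPM, of which 73.0% and 52.0% were 29 to 31 nt long. Of the mature miRNAs of these hairpins, only miR-7242-3p had more than 1 count in any library at its exact ends (RefSeq sequence, bases 2 to 8 in capitals as the seed).
mmu-miR-7242-3p: uGGCAGCUcggcucuacucugg
This 22-nt locus had 8.07 ± 1.92 CPM in mock, 7.14 ± 1.83 in CMC, 2.55 ± 1.58 in flow-through, 0.322 ± 0.175 in input and 0.427 ± 0.0921 in Ψ-IP libraries (SD, n = 3). The locus of miR-7242-5p had 0 or 1 count per library, and none had the ends of miR-7241-5p. Most RNA from both hairpins was thus longer than a miRNA.

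Most of the cluster's counts were at loci of 29 to 31 nt, which made up 68.6, 69.2 and 68.1% of the cluster's counts in the input libraries. The sides differed in their shorter piRNAs. In input, 22.1% of left-side counts and 15.3% of right-side counts were 25 to 28 nt long, and in mock 30.6% and 23.9%. The same order held by 5′ end. Of the 1347 left-side ends with at least 5 CPM, 79.3% had a length of 29 to 31 nt as their most abundant length and 15.0% one of 25 to 28 nt. On the right these shares were 86.4% and 7.91% of 455 ends.

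Compared with 2 other large bidirectional clusters, measured in the same libraries, the chromosome 9 cluster had the larger share on its opposite strand, 51.7% of which lay in a single 5-kb window. On chromosome 17 (27269742 to 27371971; 448074 loci) 0.415% of counts were on the opposite strand, and on chromosome 12 (98369021 to 98458701; 264362 loci) 0.171%, against 0.698% here. The share was higher here in 15 of 15 libraries in both contrasts (by an exact two-sided sign-flip test over libraries, p = 6.1e-05, the floor of that test, and 7.3e-05 after adjustment over 6 comparisons). Its share of 29 to 31 nt, 65.2%, lay between the 44.6% of the chromosome 17 and the 72.1% of the chromosome 12 cluster, again in 15 of 15 libraries each way (exact sign-flip test, adjusted p = 7.3e-05). The minus strand held 72.7% of counts here and 49.5% on chromosome 17 (exact sign-flip test, adjusted p = 7.3e-05), whereas for chromosome 12, also at 72.7%, no difference was detectable (exact sign-flip test, p = 0.98, higher here in 8 of 15 libraries). Libraries of a set may share their RNA, so the 15 libraries are not 15 animals, and the sign-flip p-values treat them as independent. The opposite-strand share was chosen after its profile in this cluster had been seen.

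Ψ-IP against input asks which RNA the antibody against Ψ recovered. As a whole the cluster was not called, and neither was a strand. The summed counts of the cluster stood at −0.03 on the log2 scale (SE 0.0185, edgeR adjusted p = 0.172), and of all clusters tested 9.87% were called higher and 10.4% lower. The plus strand stood at −0.06 (adjusted p = 0.0419, edgeR) and the minus strand at −0.01 (adjusted p = 0.687, edgeR). The minus-strand share was 73.4, 73.4 and 73.4% in input and 73.7, 74.0 and 74.2% in Ψ-IP libraries, which do not overlap. The mean was 0.611 points higher in Ψ-IP, with p = 0.1 by an exact two-sided permutation test, the floor for 3 against 3 libraries and therefore for every such test here. Outside annotated repeats the direction turned, at −1.08 points. The share of the library taken by the whole cluster was 0.194 points lower in Ψ-IP, again without overlap (exact permutation test, p = 0.1).

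By length, the Ψ-IP libraries held less short RNA from the cluster than input. Of 8 strand and length classes, 3 were called lower (edgeR adjusted p under 0.01) and 0 higher, beside 15.2% lower and 13.4% higher over all clusters. Plus-strand loci of 24 nt or less had 500, 419 and 546 CPM in input and 295, 281 and 242 in Ψ-IP libraries, log2 fold change −0.79 ± 0.0867 (SE, edgeR adjusted p = 6.7e-06). Minus-strand loci of 24 nt or less changed by −0.40 (edgeR adjusted p = 2.5e-04) and those of 25 to 28 nt by −0.16 (edgeR adjusted p = 9.2e-04), the latter lost with no count minimum (−0.11, adjusted p = 0.0386). The groups did not overlap in any of the 3 classes. The flow-through libraries were also below input at plus-strand loci of 24 nt or less, with 283, 346 and 297 CPM, and Ψ-IP was not called against them there (−0.13, edgeR adjusted p = 0.172). At minus-strand loci of 25 to 28 nt they had 8884, 9521 and 8925 CPM, against 10244, 9954 and 10507 in input. Ψ-IP was not called against them there either (0.01, edgeR adjusted p = 0.886), but it was lower at minus-strand loci of 24 nt or less (−0.30, edgeR adjusted p = 1.3e-04). The class of 29 to 31 nt was not called on either strand, at 0.00 on the plus strand and 0.07 on the minus strand (edgeR adjusted p = 0.0190). As a share of the cluster's counts, 29 to 31 nt made up 70.5, 70.9 and 71.8% in Ψ-IP libraries, 2.48 points more than in input (exact permutation test, p = 0.1), which every input library lay below.

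**Figure D2:**
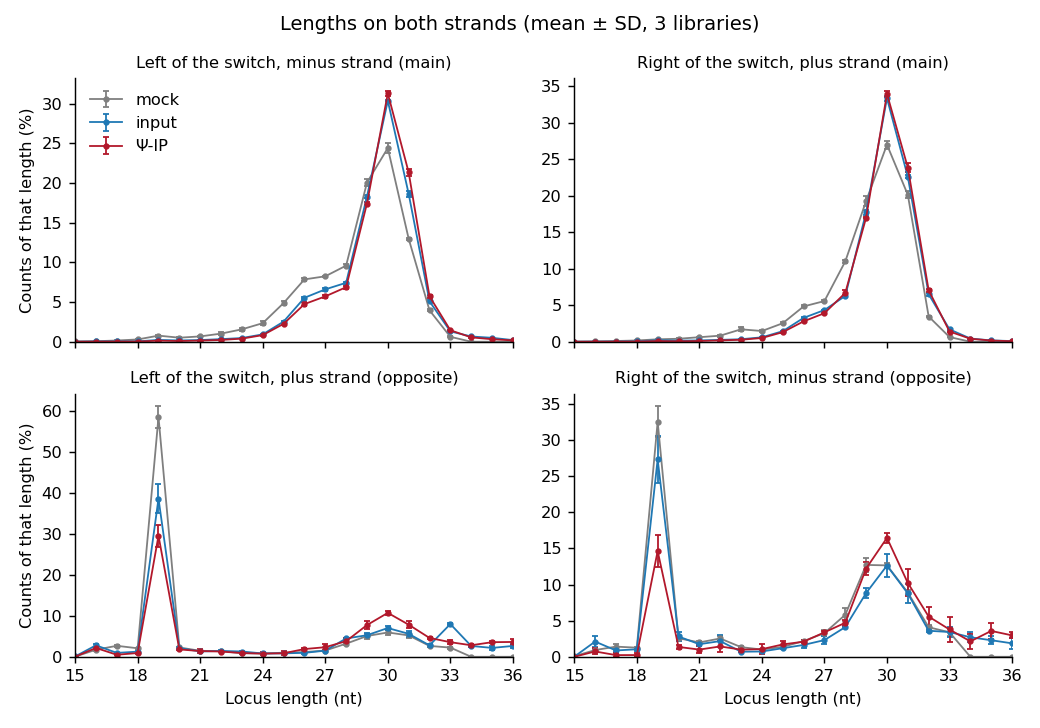
Share of counts (%) at each locus length (nt) for the main strand (upper panels) and the opposite strand (lower panels) of each side, mean ± SD of 3 mock, input and Ψ-IP libraries. Both main strands peak at 30 nt, the left side has more counts at 25 to 28 nt than the right, and both opposite strands have a separate peak at 19 nt that is lower in Ψ-IP than in input.

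Cut into 5-kb windows by strand, the cluster was uneven in Ψ-IP. Of 26 windows tested, 3 were called higher and 11 lower (edgeR adjusted p under 0.01), beside 13.4% and 17.1% of the windows of all clusters. Of the 11, 8 were on the opposite strand. Without input replicate 1 only 1 window was called higher, and without input replicate 3 or Ψ-IP replicate 3 only 7 were called lower. The main-strand windows that were called differed by little in fold terms.

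The minus-strand window at 67692024 to 67697023, near the far left end, was higher in Ψ-IP. It had 5155, 5474 and 5254 CPM in input and 6327, 6455 and 5912 in Ψ-IP libraries. The groups did not overlap, with log2 fold change 0.26 ± 0.0366 (SE, edgeR adjusted p = 5.4e-05). Repeats held 70.4% of its CPM. The call held without any single library. Its weak neighbour at 67687024 (36.4 CPM) was also higher, by 0.33 (edgeR adjusted p = 0.00182), but not without input replicate 1 (0.29, adjusted p = 0.0178). The plus-strand window at 67732024, which holds the right side's start, was called at 0.14 (edgeR adjusted p = 0.00427). A single 5′ end, at 67735961, held 26.7% of its CPM in the mean over the 5 groups. That end had 342 CPM in input, 848 in Ψ-IP and 2443 in mock libraries, so the share differs between groups. Without that end the window stood at −0.04 (adjusted p = 0.260). It also lost its call without input replicate 1 or 3 or Ψ-IP replicate 1 or 3 (log2 fold changes 0.11 to 0.15).

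The main-strand windows next to those that hold the switch were lower in Ψ-IP. The plus-strand window at 67737024 to 67742023 had 6597, 6609 and 6422 CPM in input and 5654, 5757 and 5562 in Ψ-IP libraries, log2 fold change −0.18 ± 0.0287 (SE, edgeR adjusted p = 1.5e-04), which outside repeats was −0.08 (adjusted p = 0.0508). The most abundant window of the cluster, on the minus strand at 67722024 to 67727023, had 12102, 12041 and 12215 CPM in input and 10753, 10615 and 11032 in Ψ-IP libraries, log2 fold change −0.14 (edgeR adjusted p = 0.00104). That call was lost without input replicate 3 (−0.13) and with no count minimum (−0.10, adjusted p = 0.0151). The next window towards the switch, at 67727024, was called at −0.10 (edgeR adjusted p = 0.00777), which was lost when any of 5 libraries was left out, with DESeq2's size factors (adjusted p = 0.0104) or Wald test (adjusted p = 0.0145), with no count minimum (−0.06, adjusted p = 0.228) and, at −0.05 (adjusted p = 0.112), without its top 5′ end.

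**Figure D3:**
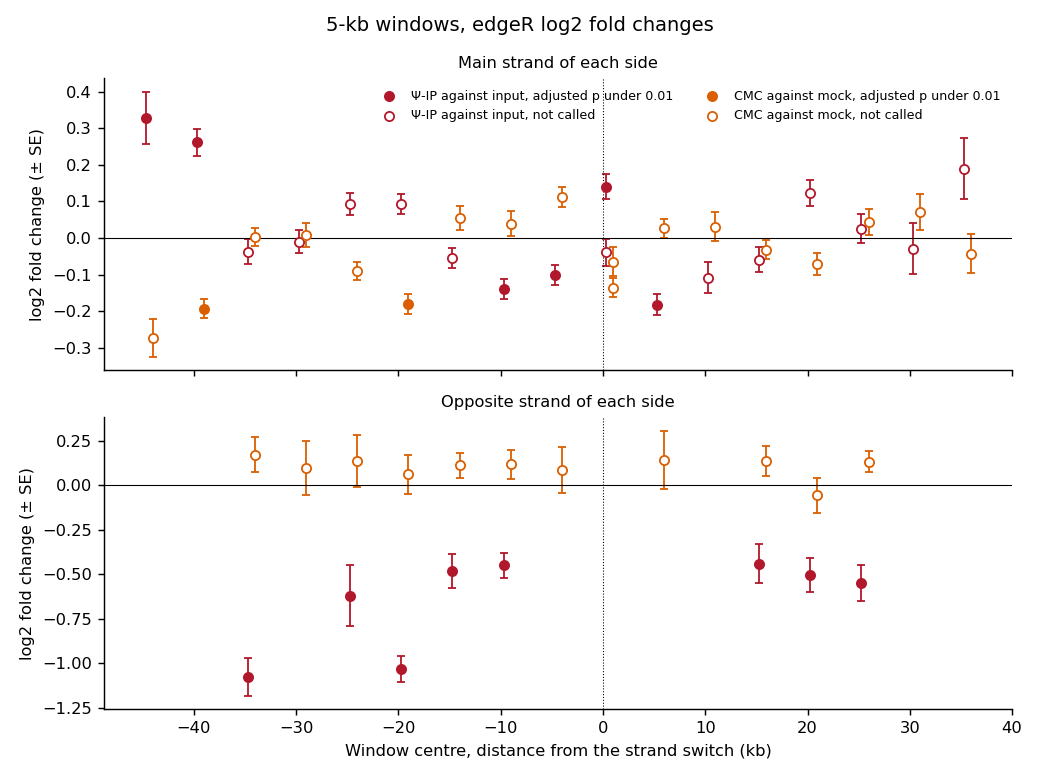
edgeR log2 fold change (± SE) of 5-kb windows against the distance of their centre from the strand switch (kb), for Ψ-IP against input and CMC against mock, with filled points for adjusted p under 0.01; main strand above, opposite strand below. Ψ-IP is higher at the far left and in the plus-strand window that holds the switch, and lower in the next windows out on both sides, CMC runs mostly the other way, and on the opposite strand all 8 windows tested in Ψ-IP lie below 0.

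The opposite strand was lower in Ψ-IP, and its called windows had larger fold differences than any called window of the main strand. It held 28049 loci and 416 CPM. Its share of the cluster's counts was 0.799, 0.679 and 0.796% in input and 0.471, 0.429 and 0.418% in Ψ-IP libraries, which is −0.319 points and a ratio of 0.579 (exact permutation test, p = 0.1). The flow-through libraries had 0.810, 0.740 and 0.751%, the mock libraries 0.690, 0.713 and 0.790%, and the CMC libraries 0.693, 0.733 and 0.955%. Every Ψ-IP library was below each of the other 12. With loci of 24 to 33 nt only, the ratio of Ψ-IP to input was 0.707 and the groups again did not overlap (exact permutation test, p = 0.1). This share was chosen after the strand profile had been seen.

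Lengths on the opposite strand were unlike those of the main strand. RNA of exactly 19 nt made up 35.7, 32.9 and 40.0% of opposite-strand counts in input, 25.4, 27.8 and 24.1% in Ψ-IP, 52.5, 52.1 and 56.8% in mock and 12.1, 16.4 and 13.3% in flow-through libraries. On the main strand it made up 0.106 to 0.874%. Of the cluster's counts on both strands, 19-nt RNA took 0.494% in input and 0.232% in Ψ-IP libraries (exact permutation test, p = 0.1), and 0.236% in flow-through, from which Ψ-IP did not differ detectably (exact permutation test, p = 0.9). In the single libraries this share ran from 0.394 to 0.577% in input, from 0.206 to 0.248% in Ψ-IP and from 0.208 to 0.271% in flow-through, and a test between input and flow-through was not made.

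A stretch about 20 kb left of the switch held much of this RNA. The plus-strand window at 67712024 to 67717023 held 51.7% of all opposite-strand CPM. It had 258, 211 and 263 CPM in input and 126, 116 and 110 in Ψ-IP libraries, log2 fold change −1.03 ± 0.0746 (SE), and with loci of 24 to 33 nt only it was still called, at −0.95. The opposite-strand windows at plus 67697024 (−1.08), 67717024 (−0.48) and 67722024 (−0.45) and minus 67752024 (−0.50) and 67757024 (−0.55) were also lower (edgeR adjusted p under 0.01), though only the window at 67712024 was still called with loci of 24 to 33 nt alone. The calls of plus 67707024 (−0.62) and minus 67747024 (−0.44) were lost when any of 5 libraries was left out, with ranges of −0.91 to −0.40 and −0.58 to −0.34, and that of plus 67717024 without Ψ-IP replicate 3 (−0.41).

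Single opposite-strand loci in this stretch behaved unlike each other. The most abundant, 19 nt long at 67716022 to 67716040, had 140 ± 18.1 CPM in mock, 35.7 ± 9.83 in input, 21.7 ± 1.85 in Ψ-IP and 10.7 ± 4.28 in flow-through libraries (SD, n = 3), and was lower in Ψ-IP than in input at −0.87 (log2) (edgeR adjusted p = 6.3e-04). In the mean over the 5 groups it alone made up 45.2% of the opposite-strand 19-nt CPM, a share that mixes groups with unlike levels. The main-strand 5′ end that would face it at 10 nt had only 0.159 CPM. A group of RNAs farther left fell far more. The 19-nt locus at 67714479 to 67714497 had 25.4, 15.3 and 28.4 CPM in input and 1.97, 3.37 and 2.72 in Ψ-IP libraries (−3.23 ± 0.26, SE, edgeR adjusted p = 7.6e-31). Directly after its 3′ end, a 33-nt locus at 67714498 to 67714530 had 24.7, 19.9 and 24.9 CPM in input and 2.74, 2.16 and 1.09 in Ψ-IP libraries (−3.75, edgeR adjusted p = 1.4e-37). Facing them on the main strand, 10 nt beyond the 3′ end of the 19-nt locus, was a 5′ end at 67714507 with 34.3 CPM and a main length of 30 nt.

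The same distances were then measured over the whole opposite strand. Where a facing main-strand 5′ end lay 1 to 30 nt beyond the 3′ end of a 19-nt locus, 29.4% of the weight by CPM on the left and 45.2% on the right fell at exactly 10 nt. The next 5′ end on the same strand began directly after the 19-nt locus in 63.98% of the weight on the left (62.8% without the most abundant locus) and 26.5% on the right, against 5.84% for 19-nt loci of the main strand. For longer opposite-strand loci of 24 to 33 nt, 31.99% of the weight fell at a 10-nt overlap of 5′ ends. Where sequence could be read, these loci had A at position 10 in 72.7% and T at position 1 in 38.6% of their CPM, whereas main-strand loci of that length had A at position 10 in 16.1%. Counted by locus, A at position 10 was found at 59.5% of the opposite-strand and 25.8% of the main-strand loci, and T at position 1 at 46.2% and 56.9%.

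**Figure D4:**
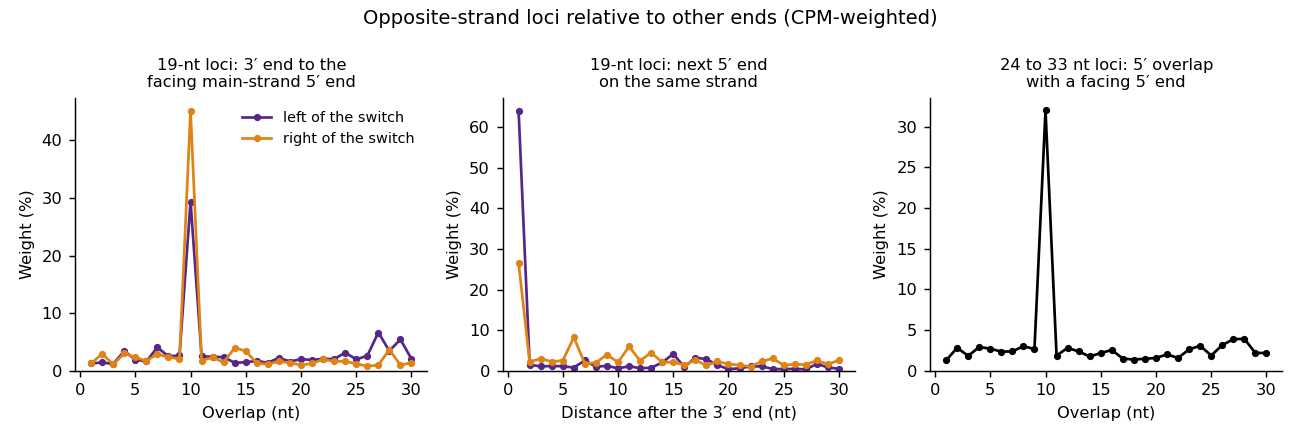
CPM-weighted share (%) of distances of 1 to 30 nt between opposite-strand loci and other ends, for 19-nt loci against facing main-strand 5′ ends (left), 19-nt loci against the next 5′ end on their own strand (middle) and loci of 24 to 33 nt against facing 5′ ends (right). The outer panels have 1 peak at 10 nt, and the middle panel has its peak directly after the 3′ end.

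At single loci, 37707 of the cluster's loci had more than 20 counts over the 9 libraries and were tested. In Ψ-IP, 2113 were higher (5.604%, beside 5.45% over all loci) and 4659 lower (12.4%, beside 10.7%), by edgeR at an adjusted p under 0.01. These shares were near those of all loci. The higher count fell to 976 without input replicate 1 and 974 without input replicate 3, and the lower count to 2797 without input replicate 1. On the opposite strand, 0 of 243 tested loci were higher and 41 (16.9%) lower on the left. On the right, 1 of 71 was higher and 7 (9.86%) were lower, beside 10.7% lower over all loci. Of the loci of 24 nt or less on that strand, 35 of 115 (30.4%) were lower, beside 11.2% of the cluster's loci of that length on both strands and 9.74% over the whole series. Of longer opposite-strand loci, those called lower were 2 of 14 (14.3%, beside 10.4% over the series) at 25 to 28 nt, 7 of 84 (8.33%, beside 11.4% over the series) at 29 to 31 nt and 4 of 101 (3.96%, beside 8.46%) at 32 nt or more.

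Of the 3 most abundant loci of each strand, 0 on the minus strand and 2 on the plus strand were called against input. On the left, the 31-nt locus at 67708999 to 67709029 had 811, 774 and 738 CPM in input and 1019, 804 and 1002 in Ψ-IP libraries (0.14, edgeR adjusted p = 0.597), against 14.8 ± 1.44 (SD, n = 3) in mock libraries, which were made with the other kit. The 30-nt locus at 67704941 to 67704970 had 900, 694 and 885 CPM in input and 696, 766 and 786 in Ψ-IP libraries, with overlapping groups (−0.28, edgeR adjusted p = 0.250). The 30-nt locus at 67722373 stood at 0.13 (edgeR adjusted p = 0.651). Flow-through libraries had less of the last 2, with 114, 197 and 206 CPM at 67704941 (Ψ-IP against flow-through 2.38, edgeR adjusted p = 9.0e-22) and 36.3, 48.02 and 41.9 CPM at 67722373 (2.30, edgeR adjusted p = 1.4e-17), but not of 67708999 (0.41, edgeR adjusted p = 0.181). On the right, 2 abundant loci moved in opposite directions. The 30-nt locus at 67735961 to 67735990 had 162, 169 and 180 CPM in input and 492, 369 and 523 in Ψ-IP libraries, a rise of 1.30 ± 0.19 (log2, SE, edgeR adjusted p = 4.9e-10). The 31-nt locus at 67739037 to 67739067 had 111, 116 and 110 CPM in input and 56.0, 47.5 and 48.1 in Ψ-IP libraries, log2 fold change −1.30 (edgeR adjusted p = 7.9e-09). Neither group of libraries overlapped the other at these 2 loci. The flow-through libraries had 567, 598 and 541 CPM at 67735961, from which Ψ-IP did not differ detectably (−0.05, edgeR adjusted p = 0.917), and 65.1, 68.6 and 66.2 CPM at 67739037 (−0.15, edgeR adjusted p = 0.737).

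The largest rises lay together. All 4 loci chosen as the largest rises were on the minus strand between 67694176 and 67696060, in the window that was higher as a whole, and 2 of them shared a 5′ end in an L1M2 element. Of these 2, the 30-nt locus at 67696031 to 67696060 had 17.9, 25.9 and 19.02 CPM in input and 175, 107 and 78.3 in Ψ-IP libraries (2.36, edgeR adjusted p = 5.8e-25). The loci of that window went both ways, however. Of 3091 tested, 258 were called higher (8.35%, beside 5.45% over all loci) and 329 lower (10.6%, beside 10.7%). The largest falls were spread within 7 kb of the switch on both sides. The 29-nt locus at 67729227 to 67729255 had 43.9, 22.9 and 44.8 CPM in input and 1.88, 1.90 and 1.30 in Ψ-IP libraries (−4.63, edgeR adjusted p = 3.2e-55). On the right, the 33-nt locus at 67735018 to 67735050 had 25.02, 24.3 and 30.1 CPM in input and 1.63, 1.21 and 1.00 in Ψ-IP libraries (−4.54). The choice of these loci required that no library crossed over.

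The piRNAs shown as sequence differed in the same way over short distances. The Gm7787 piRNA with 11 T, at 67748455, had 19.7, 21.5 and 18.5 CPM in input and 68.2, 66.6 and 62.0 in Ψ-IP libraries (1.58, edgeR adjusted p = 1.3e-11). The one at 67748598, with 5 T, also rose, from 9.62, 9.41 and 12.2 to 21.6, 15.3 and 20.7 CPM (0.74, edgeR adjusted p = 0.00737). Between them, at 67748495, the piRNA with 9 T fell from 39.3, 48.4 and 38.1 to 15.2, 15.9 and 14.4 CPM (−1.61, edgeR adjusted p = 2.4e-11). The Mir7241 piRNA, with 8 T, fell from 32.04, 26.7 and 30.9 to 19.8, 19.2 and 13.2 CPM (−0.93, edgeR adjusted p = 2.6e-04). Over the 664 tested loci with a sequence, at 226 5′ ends that share bases and libraries, the percentage of T and the log2 fold change had a Pearson's r of 0.15, given as a description.

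CMC against mock asks which RNA was lost from the library after CMC. The total of the cluster did not differ detectably, with 58546, 58321 and 58300 CPM in mock and 58183, 58191 and 58214 in CMC libraries (0.00, edgeR adjusted p = 0.873). As a percentage of the library it was 0.0193 points lower with CMC, without overlap (exact permutation test, p = 0.1). Among all clusters, 1.08% were called in each direction. The plus strand stood at −0.02 (edgeR adjusted p = 0.397) and the minus strand at 0.00 (edgeR adjusted p = 0.931). No length class was called, in the cluster or in any other (0% of all classes in each direction). Same-numbered mock and CMC libraries deviated together, and with the replicate number as a block 1 class was higher, minus-strand loci of 24 nt or less (0.11, edgeR adjusted p = 0.00185; without the block and CMC replicate 3 the value was −0.0053), and 2 were lower, loci of 32 nt or more on the plus (−0.15, adjusted p = 1.0e-04) and minus strand (−0.15, adjusted p = 2.3e-05).

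Of 29 windows tested, 2 were called lower in CMC and 0 higher (edgeR adjusted p under 0.01), beside 0.683% and 0.0525% of all windows. The minus-strand window at 67692024, which was higher in Ψ-IP, had 5720, 5874 and 5816 CPM in mock and 5174, 5049 and 5221 in CMC libraries (−0.19 ± 0.0266, SE, edgeR adjusted p = 0.00498). Of its 2302 tested loci, 50 were higher with CMC (2.17%, beside 1.07% over all loci) and 44 lower (1.91%, beside 0.654%). The minus-strand window at 67712024 had 3974, 3981 and 3948 CPM in mock and 3551, 3569 and 3530 in CMC libraries (−0.18, edgeR adjusted p = 0.00744). The groups did not overlap in either window. Both calls were lost without mock replicate 1, 2 or 3 or CMC replicate 2, when 0 windows were called, and without the top 5′ end of the window (−0.12, adjusted p = 0.0231, and −0.07, adjusted p = 0.117). The call of the first was also lost outside repeats (−0.17, adjusted p = 0.0286) and that of the second with DESeq2's size factors (−0.18, adjusted p = 0.0119). With the replicate block 4 windows were lower and 1, on the minus strand at 67727024, was higher (0.11, edgeR adjusted p = 0.00672). Over the 18 main-strand windows tested in both sets, which share no libraries, the log2 fold changes of Ψ-IP against input and of CMC against mock had a Pearson's r of −0.84 and a Spearman's rho of −0.73, given as a description.

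Of 28981 loci tested with CMC, 370 were higher (1.28%, beside 1.07% over all loci) and 206 lower (0.711%, beside 0.654%), by edgeR at an adjusted p under 0.01. Leaving out a library changed these counts to between 210 and 346 higher, the lowest without mock replicate 2, and 68 to 303 lower. The lower count was 123 without mock replicate 1, 68 without mock replicate 2, 135 without mock replicate 3, 91 without CMC replicate 2 and 134 without CMC replicate 3, and 315 with the replicate block. On the opposite strand no locus of 319 on the left and 115 on the right was called. Over the 355 tested loci with a sequence, the percentage of T and this log2 fold change had a Pearson's r of −0.29. These loci had 121 5′ ends, and the value is given as a description.

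Most loci that rose with CMC shared the 3′ end of a more abundant locus that began slightly upstream. Whether they derive from that locus was not tested. A locus was said to have an upstream partner when another locus at least 5 times as abundant shared its 3′ end and began 1 to 3 nt upstream. Of the 370 loci that rose, 242 (65.4%) had such a partner, against 12.03% of the tested loci, and of the 206 that fell only 1 had one. A partner 1 to 3 nt downstream was found for 15.7% of those that rose and 9.51% of those tested. The excess was greatest at 1 nt (38.9% against 4.996%) and smaller at 2 nt (30.5% against 4.72%) and 3 nt (19.2% against 4.49%). It was not particular to the cluster, since over all clusters 60.5% of the 5979 loci that rose had an upstream partner, against 10.6% of those tested.

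The largest rises and the largest fall came from 2 such families. On the minus strand, the 29-nt locus at 67712885 to 67712913 fell from 295, 306 and 295 CPM in mock to 146, 132 and 116 in CMC libraries (−1.25 ± 0.11, SE, edgeR adjusted p = 4.8e-11). The 27-nt locus with the same 3′ end that begins 2 nt downstream rose from 0.281, 0.291 and 0.125 to 7.48, 8.11 and 10.4 CPM (5.10, edgeR adjusted p = 4.7e-21). On the plus strand, the 28-nt locus at 67741850 to 67741877 rose from 1.07, 1.30 and 1.05 to 9.20, 10.02 and 12 CPM (3.10), while its 29-nt partner that begins 1 nt upstream had a mean of 262 CPM in mock and 288 in CMC libraries. So the main form of the minus-strand family was lower with CMC, and that of the plus-strand family was not.

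**Figure D5:**
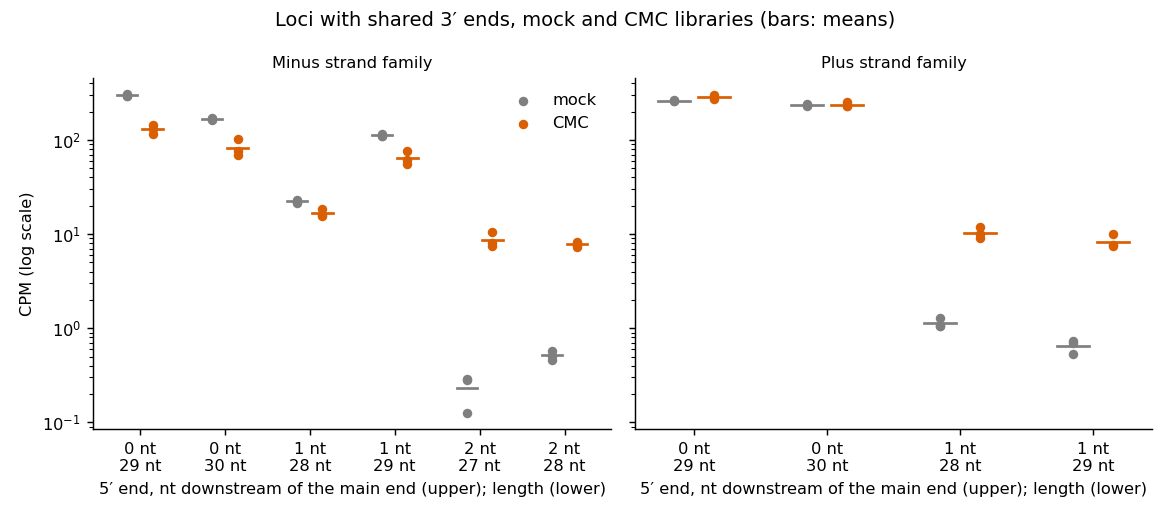
CPM (log scale) in each mock and CMC library for loci that share 3′ ends in 2 families, ordered by how far the 5′ end lies downstream of the main 5′ end; bars are means of 3 libraries. The minus-strand forms 2 nt downstream and the plus-strand form 1 nt downstream lie near or under 1 CPM in mock and near 10 CPM in CMC libraries, and the full-length form is lower with CMC in the minus-strand family only.

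Of the cluster's loci, 16525 were tested in both assays. Of these, 7.84% were higher in Ψ-IP and 1.14% lower with CMC, beside 7.87% and 1.09% over the whole series. In the cluster, 39 were higher in Ψ-IP and lower with CMC, which is 3.01% of the 1295 higher in Ψ-IP and 20.6% of the 189 lower with CMC. Another 43 were lower in Ψ-IP and higher with CMC (1.71% of 2512 and 21.7% of 198). Only 3 were higher in both and 9 lower in both. Over the whole series these counts were 875, 558, 106 and 169 of 293568 loci. The 875 were 3.79% of the loci higher in Ψ-IP and 27.4% of those lower with CMC, both above the cluster's shares, and the 558 were 1.47% and 19.9%, both below them.

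The most abundant locus of the first kind was a 30-nt piRNA of the L1M2 element at 67696572 to 67696601, in the far-left window. It had 59.3, 66.7 and 64.5 CPM in input and 161, 137 and 128 in Ψ-IP libraries (1.01, edgeR adjusted p = 7.3e-06). It had 247, 250 and 250 CPM in mock and 168, 129 and 121 in CMC libraries (−0.90, edgeR adjusted p = 7.9e-07). Both calls held without any single library, but both were lost with no count minimum (0.92, adjusted p = 0.0441, and −0.95, adjusted p = 0.0164). The next, the minus-strand locus at 67712885 described above, had 31.9, 36.99 and 29.8 CPM in input and 32.3, 94.4 and 51.1 in Ψ-IP libraries, so the groups overlapped, and its call (0.72, edgeR adjusted p = 0.00405) was lost without Ψ-IP replicate 2 or any input library (0.20 to 0.81), by the DESeq2 Wald test (0.70, adjusted p = 0.251) and above 100 counts (0.76, adjusted p = 0.0151). The next after it, at 67734699 to 67734728 on the plus strand, was called at 0.97 in Ψ-IP (edgeR adjusted p = 3.0e-05) and −0.56 with CMC (edgeR adjusted p = 0.00247), but not without Ψ-IP replicate 2 (0.63) in the first nor without mock replicate 1 or 2 or CMC replicate 2 or 3 in the second. Of the loci called the other way, the most abundant, 28 nt at 67726903 to 67726930, was lower in Ψ-IP by −2.58 (log2) and had 57.7 CPM in mock and 84.0 in CMC libraries (0.48, edgeR adjusted p = 0.00827), a CMC call that was lost without mock replicate 1, 2 or 3 or CMC replicate 3. With no count minimum, the calls given here for 67712885 in Ψ-IP, for 67734699 in both assays and for 67726903 with CMC were lost too.

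Ψ-IP against flow-through shares the Ψ-IP libraries with the comparison against input. The cluster total was not called, at 0.06 (SE 0.0209, edgeR adjusted p = 0.0196), beside 19.6% of clusters called higher and 20.5% lower. The plus strand was higher in Ψ-IP by 0.11 (log2, edgeR adjusted p = 0.00240) and the minus strand by 0.08 (edgeR adjusted p = 0.00476), beside 20.7% of all strands called higher. The first was lost without flow-through replicate 2 or Ψ-IP replicate 1 or 2 (0.09 to 0.13 over all 6) and the second when any of 5 libraries was left out (0.07 to 0.09). The minus strand stood at −0.07 outside repeats (adjusted p = 0.0211). By length, 3 classes were higher and 1 lower (beside 20.7% and 22.4%), with minus-strand loci of 29 to 31 nt at 0.19 (edgeR adjusted p = 1.8e-05; outside repeats 0.05, adjusted p = 0.291) and those of 24 nt or less at −0.30 (edgeR adjusted p = 1.3e-04). Of the 26 windows, 9 were higher and 9 lower (beside 24% and 27.5%). The plus-strand window at 67737024, lower than input, had 4224, 4725 and 4881 CPM in flow-through libraries and was higher in Ψ-IP than these (0.33, edgeR adjusted p = 4.2e-05). The plus-strand window at 67732024, higher than input, had 4793, 4817 and 4657 CPM in flow-through libraries and was lower in Ψ-IP (−0.16, edgeR adjusted p = 0.00254). It was no longer called without flow-through replicate 2 or Ψ-IP replicate 2 and with no count minimum (−0.07, adjusted p = 0.195). Of the loci 3989 were higher (10.6%, beside 9.3%) and 1320 lower (3.50%, beside 3.56%, and 812 without Ψ-IP replicate 2). Over the 664 loci with a sequence, the percentage of T and this log2 fold change had a Pearson's r of 0.53, as a description. The opposite-strand share was lower in Ψ-IP than in flow-through libraries by a ratio of 0.572, and the groups did not overlap (exact permutation test, p = 0.1).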

How the data were processed

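Per the study's methods, the authors clipped adaptors with Cutadapt, set tRNA fragments aside, mapped the other reads to mm10 with Bowtie2, allowing up to 3 mismatches, and intersected them with repeats and piRNA clusters (bedtools is in the submitters' processing notes). The deposited values are raw counts per genomic interval and strand, 1 table per library. Loci were joined over libraries and summed by cluster (647 listed), strand, 5-kb window of the 5′ end and length class. Each whole table was tested with edgeR 4.0.16 (TMM, quasi-likelihood, R 4.3.3) on the 6 libraries of a comparison, with Benjamini-Hochberg adjustment over the whole table and a threshold of 0.01. Summed features needed an average of 100 counts and loci more than 20 counts over the set. The absolute log2 fold change over the root of its F statistic gave the standard error. CPM divides by total deposited counts. Shares were compared by exact permutation tests over all assignments of the libraries to the groups. The fits were tested on simulated data. Alternatives were DESeq2 1.42.0 (size factors, Wald test), no minimum, a locus minimum of 100 counts, 2-kb windows, loci outside repeats, loci of 24 to 33 nt, a replicate block and leaving out each library.

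The cluster, the lists and the tests were chosen with earlier results of these data known. Named loci were the 3 most abundant per strand, up to 4 largest rises and falls per comparison (called, with an average of 100 counts and the same direction in all 9 pairs of libraries) and up to 3 called in both assays, by abundance; windows followed abundance and calls. The opposite-strand and Gm7787 loci were chosen after their values were seen. Deviations of same-numbered mock and CMC libraries correlated at 0.125, 0.146 and 0.295 over 87515 loci. Pairs of other numbers ran from −0.342 to 0.230, the highest for CMC replicate 2 with mock replicate 1. The main tests used no pairing, and the replicate number entered only as a block in an alternative fit. The labels do not say what the number marks.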

Additional observations from a re-analysis of the deposited data

How the results depend on the processing

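Processing alternatives moved several counts of calls by over 1.5 times, and the cause was not tested. For Ψ-IP against input (log2 fold changes), outside repeats the total stood at −0.0644, the minus strand at −0.0761 and the plus strand at 0.0043, and the minus strand was at 0.00082 with DESeq2's size factors, 0.00083 with its Wald test and 0.0066 with no minimum; none was called. Windows called higher were 6 with no minimum or 2-kb windows, and windows called lower 4 with loci of 24 to 33 nt and 17 with 2-kb windows (51 tested, against 26 of 5 kb). With no minimum 1 length class was higher. Loci called higher were 1342 by the Wald test and 931 with no minimum, and lower ones 2948 by the Wald test and 2804 above 100 counts. Without its most abundant 5′ end, the plus-strand window at 67732024 turned to −0.0394. The minus-strand share turned to −1.08 points outside repeats. Leaving out each library gave 1 to 3 windows higher and 7 to 10 lower, and 974 to 2335 loci higher and 2797 to 4567 lower.

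For CMC against mock, size factors and the Wald test turned the total to −0.0021 and the minus strand to −0.00035, and no minimum the minus strand to −0.0034. Windows called lower were 4 with the replicate block, the Wald test, no minimum or 24 to 33 nt, 1 with size factors or outside repeats and 0 without the most abundant 5′ end. Windows called higher were 1 with the block or 24 to 33 nt. The block called 1 length class higher and 2 lower. Loci called higher were 227 by the Wald test and 235 above 100 counts, and lower ones 315 with the block and 120 with no minimum. Leaving out each library gave −0.0125 to 0.0083 for the total, −0.0137 to 0.0184 for the minus strand, 0 to 2 windows lower, 210 to 346 loci higher and 68 to 303 lower. Minus-strand loci of 24 nt or less ranged from −0.0053 to 0.204, the opposite-strand share from −0.0183 to 0.113 points and the 19-nt share from −0.120 to 0.141 points.

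For Ψ-IP against flow-through, the total was called with no minimum (0.0785) and turned to −0.0226 outside repeats. The plus strand lost its call with 24 to 33 nt (0.0851), and the minus strand by the Wald test (0.0971) and with 24 to 33 nt (0.0550), and it turned to −0.0715 outside repeats. With 2-kb windows 17 of 51 were higher and 14 lower. With no minimum 0 length classes and 782 loci were lower. The 19-nt share turned to 0.0303 points above 20 counts and 0.0200 outside repeats. Leaving out each library gave 0.0899 to 0.127 for the plus strand, 0.0725 to 0.0922 for the minus strand, 812 to 1224 loci lower and −0.0177 to 0.0138 points for the 19-nt share.

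For Ψ-IP with input (same-numbered deviations correlated at 0.251, 0.304 and −0.030) and with flow-through (0.0885, 0.182 and −0.046), not every pair exceeded 0.1 and the labels do not say what the number marks, so no pairing was assumed. With the replicate block, 4 windows were higher and 11 lower against input, with 1842 and 4112 loci, the locus at 67712885 stood at 0.58 (adjusted p = 0.0112), and windows were 9 higher and 11 lower against flow-through, with 3358 and 1074 loci. The alternative without the most abundant 5′ end and the shares of the opposite strand and of 19 nt were added after the data had been seen. Cluster counts were lowest in a Ψ-IP library, which limits the precision of weak opposite-strand loci, and 3 against 3 libraries cannot reach an exact p under 0.1.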
